A study of Homo sapiens with 16 samples.

Results

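MYLK and 9 further genes of the contractile actomyosin machinery were followed across MDA-MB-231 and MCF10A cells given 2-deoxyglucose (2DG) or vehicle. MYLK encodes myosin light chain kinase. The others encode the regulatory myosin light chains (MYL9, MYL12A, MYL12B), smooth muscle alpha actin (ACTA2) and the thin filament and actin-binding proteins transgelin (TAGLN), calponin (CNN1), tropomyosin (TPM1, TPM2) and caldesmon (CALD1). They make up 10 of the 19775 genes with a value, and 40 of the 54675 probe sets on the array carry exactly one of their symbols. MYLK was selected on the size of its change with 2DG in these same arrays, so its values are given as a description, without a test. Where a gene has several probe sets, the one with the highest mean over the 16 arrays stands for it, and the others are given beside it.

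The study asked how blocking glucose metabolism alters gene expression in mammary cell lines. MDA-MB-231, a metastatic breast cancer line, and MCF10A, an immortalised and non-tumorigenic mammary epithelial line, were exposed to 50 mM 2DG or to an equal amount of water as vehicle for 24 h. 2DG is a glucose analogue that is phosphorylated by the cell but not carried further through glycolysis. The groups were MDA-MB-231 with 2DG, MDA-MB-231 on vehicle, MCF10A with 2DG and MCF10A on vehicle, with 4 arrays each from parallel cultures that the submitters call independent. The labels name no genetic change in any group. The lines were also kept in different media: MDA-MB-231 in fetal bovine serum, MCF10A in horse serum with insulin, EGF, cholera toxin and hydrocortisone. Line and medium cannot be told apart. Each line stands for 1 culture lineage. In bulk RNA, fewer cells that express a gene and less RNA per cell cannot be told apart.

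Non-muscle cells contract by the same principle as smooth muscle. Myosin light chain kinase raises the phosphorylation of the regulatory light chain, a phosphatase with a myosin-targeting subunit lowers it, and the phosphorylated myosin then pulls on actin filaments. Tropomyosin, caldesmon and calponin lie on or bind the thin filament and restrain or tune that pull. In the mammary gland this machinery is strongest in the myoepithelial cells, which squeeze milk from the alveoli, and many of its genes are targets of serum response factor (SRF) bound at CArG boxes with its actin-sensing partners, the MRTFs.

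Promoter sequence is shown for MYLK, which was higher with 2DG in MCF10A and lower in MDA-MB-231, for TPM2, which did the opposite, and for ACTA2, a classical SRF target that rose with 2DG in MCF10A. Each window holds the 250 bases before a RefSeq start on GRCh38.p14, read 5′ to 3′ on the strand of the gene, with capitals marking a CArG box (CC, 6 bases of A or T, GG) or a CArG box with any base at 1 of the 6 middle positions. The MYLK window lies at chr3:123620549-123620798 on the minus strand. Its start is an internal one, 263.8 kb downstream of the first base of the gene (chr3:123610049-123884332) and 10.5 kb before the last. No other MYLK window was found, so none at the first base of the gene was searched. The 3′ end of MYLK is known as the source of telokin, a short protein of smooth muscle that lacks the kinase domain. The ACTA2 window lies at chr10:88952774-88953023 on the minus strand, and the TPM2 window at chr9:35690057-35690306 on the minus strand.
MYLK: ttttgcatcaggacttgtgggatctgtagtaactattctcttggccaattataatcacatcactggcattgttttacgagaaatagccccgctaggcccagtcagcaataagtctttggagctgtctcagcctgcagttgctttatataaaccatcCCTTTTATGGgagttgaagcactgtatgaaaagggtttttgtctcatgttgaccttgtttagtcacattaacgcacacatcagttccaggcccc
ACTA2: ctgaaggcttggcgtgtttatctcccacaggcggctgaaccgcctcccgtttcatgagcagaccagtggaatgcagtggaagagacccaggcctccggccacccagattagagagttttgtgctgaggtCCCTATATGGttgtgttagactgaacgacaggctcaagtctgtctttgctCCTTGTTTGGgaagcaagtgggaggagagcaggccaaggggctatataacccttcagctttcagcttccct
TPM2: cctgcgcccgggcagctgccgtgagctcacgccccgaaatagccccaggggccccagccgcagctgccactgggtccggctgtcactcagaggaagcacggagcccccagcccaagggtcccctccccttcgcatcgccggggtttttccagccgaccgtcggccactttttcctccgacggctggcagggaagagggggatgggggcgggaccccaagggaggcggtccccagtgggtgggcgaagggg
The internal MYLK window held the strict CArG box, from 94 to 85 bases before that start. Next to the box was a TATAAA that began 105 bases before the start and overlapped a second TATAAA on the other strand. ACTA2 held 2 boxes with 1 change, from 121 to 112 and from 71 to 62 bases before its start. TPM2 held neither form.

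Windows were found for 8 of the 10 members, 17 windows in all, and none was matched for MYL9 or TAGLN. Both strands were searched for each motif. The CArG pattern reads the same on both. The strict CArG box was in 1.16% of 35116 RefSeq windows of this length and in 1 of the 17 member windows. The form with 1 change, which also counts the strict box and was added after the strict result was seen, was in 7.04% of windows and in 4 of the 17, 1 each of MYLK, ACTA2, MYL12A and CALD1. The second ACTA2 window, at the upstream start, held neither form. TATAAA was in 10.72% of windows and in 2 of the 17, of MYLK and CALD1. CATTCC, the core element bound by TEAD factors, was in 11.89% of windows and in 3 of the 17, of ACTA2 and CALD1. These matches describe letters in a window and say nothing of binding.

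All values are the submitters' log2 expression values made by RMA, which corrects the background, normalises the arrays against each other and summarises the probes of each set. Array medians ran between 6.17 and 6.22. The line labels were checked against fixed markers. KRT5, KRT14 and CDH1 averaged 7.10, 5.71 and 5.31 in MDA-MB-231 with 2DG and 6.715, 4.91 and 4.62 in MDA-MB-231 on vehicle. In MCF10A they averaged 13.59, 13.31 and 13.52 with 2DG and 13, 13.63 and 13.06 on vehicle. KRT5, KRT14 and E-cadherin (CDH1) were thus high in MCF10A alone, but not all markers of their lists were. On vehicle 2 of 7 epithelial markers were higher in MDA-MB-231 and 3 lower. KRT19 averaged 12.15 there and 4.58 in MCF10A. Of 7 basal and myoepithelial markers 1 was higher (OXTR) and 6 lower, and LAMB3 was high in both lines (12.015 and 13.0075). Of all genes, 29.2% were higher and 26.8% lower. The 7 mesenchymal markers did not separate the lines in one direction: on vehicle 4 were higher in MDA-MB-231, ZEB1 by 3.54, and 3 were lower, among them N-cadherin (CDH2, −4.475) and TWIST1 (−5.01). The smooth muscle markers MYH11, DES and ACTG2 stayed between 6.25 and 6.89 in the 4 groups, with no call in any comparison. Others of that list were called. On vehicle SYNM averaged 9.10 in MDA-MB-231 and 5.96 in MCF10A, and SMTN was called with 2DG in both lines. The 11 smooth muscle genes had mean levels per array of 6.22 to 6.29 in MDA-MB-231 with 2DG and 6.19 to 6.25 on vehicle, against 5.74 to 5.88 in MCF10A with 2DG and 5.96 to 6.02 on vehicle.

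RNA quality moved with the treatment. The log2 ratio of the 3′ to the 5′ actin control probe sets was 1.03 ± 0.0714 in MDA-MB-231 with 2DG and 0.598 ± 0.331 on vehicle (SD, n = 4), where vehicle replicate B stood apart at 1.09. In MCF10A it was 0.55 ± 0.0678 with 2DG and 0.392 ± 0.067 on vehicle. Its part in the results below was not tested apart from a fit with that ratio as a covariate. Without vehicle replicate B of MDA-MB-231, the change of MYLK in that line was −1.83 and the ACTA2 call was lost, as given below.

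MYLK moved in opposite directions in the lines. Its brightest probe set, 224823_at, read 7.53, 7.75, 7.78 and 7.55 in MDA-MB-231 with 2DG and 9.52, 9.50, 9.45 and 9.47 on vehicle. In MCF10A it read 8.65, 8.62, 8.62 and 8.57 with 2DG and 5.84, 5.93, 6.16 and 6.06 on vehicle. All 4 arrays with 2DG lay below all vehicle arrays in MDA-MB-231, and above all of them in MCF10A. The group means were 7.65 ± 0.131 and 9.485 ± 0.0311 in MDA-MB-231, a log2 change of −1.83 (SE 0.0672) or 3.56-fold lower with 2DG. In MCF10A they were 8.615 ± 0.0332 with 2DG and 6.0 ± 0.141 on vehicle, a change of 2.62 (SE 0.0672) or 6.14-fold higher with 2DG.

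The change in MDA-MB-231 minus that in MCF10A was −4.45 (SE 0.0951). On vehicle MYLK was 11.2-fold higher in MDA-MB-231 than in MCF10A (log2 difference 3.49), and under 2DG it was 1.95-fold lower in MDA-MB-231 (−0.96). The order of the groups from high to low was therefore MDA-MB-231 vehicle, MCF10A with 2DG, MDA-MB-231 with 2DG and MCF10A vehicle, and no neighbours in that order shared a value.

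The size of the MYLK change depended on the probe set. On 202555_s_at the values were 7.25, 7.43, 7.45 and 7.29 in MDA-MB-231 with 2DG and 8.65, 8.65, 8.68 and 8.67 on vehicle. In MCF10A they were 7.75, 7.67, 7.76 and 7.63 with 2DG and 6.39, 6.82, 6.35 and 6.59 on vehicle. The order of the 4 groups was the same, with no overlap, and the changes were smaller: −1.31 (SE 0.0829) in MDA-MB-231 and 1.165 (SE 0.0829) in MCF10A. Between lines the differences on this probe set were 2.125 on vehicle and −0.35 under 2DG. The 3 remaining probe sets, 1568770_at, 1563466_at and 1569956_at, averaged 5.72, 4.36 and 3.20 over the 16 arrays. Their changes with 2DG were −0.14, −0.13 and −0.04 in MDA-MB-231 and −0.09, 0.07 and 0.10 in MCF10A, and their groups overlapped. With the mean of all 5 probe sets the MYLK change was −0.69 in MDA-MB-231 and 0.77 in MCF10A. Which transcripts of MYLK each probe set reads was not analysed here.

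**Figure D1:**
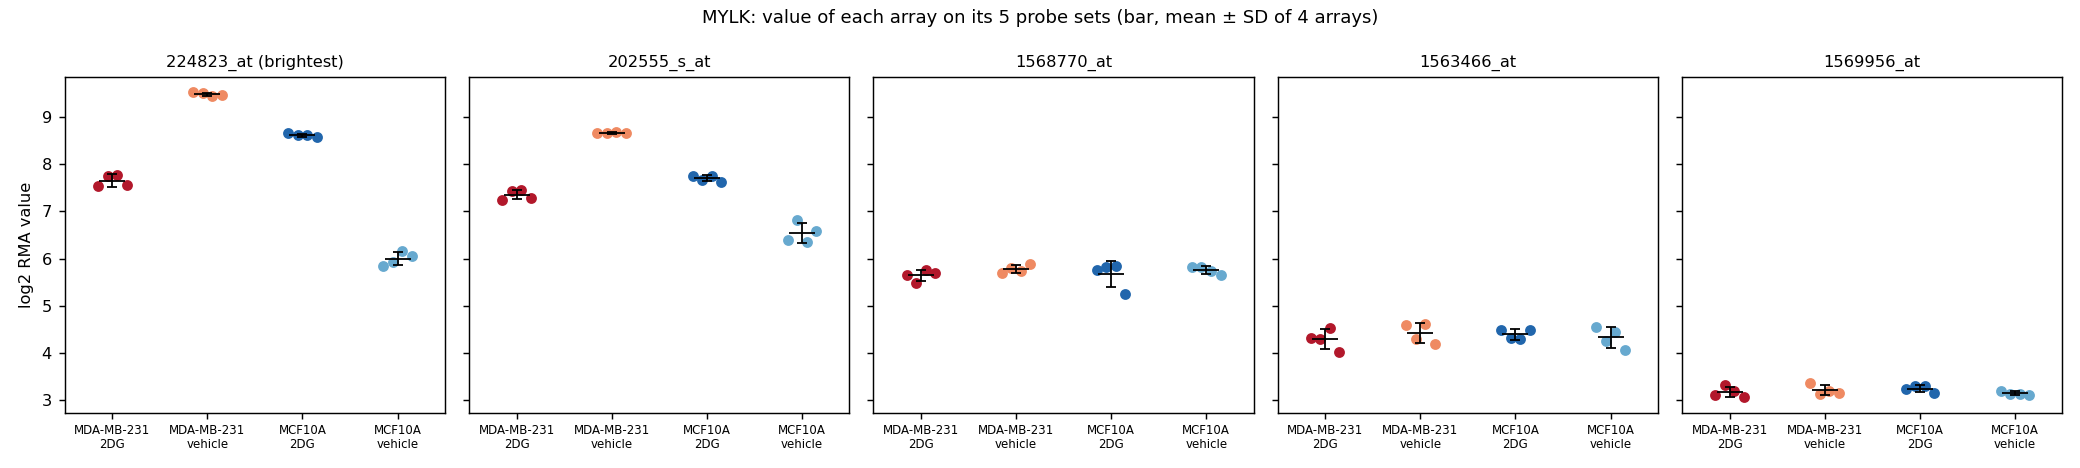
Log2 RMA value (y axis) of each array on the 5 MYLK probe sets, in the groups MDA-MB-231 with 2DG, MDA-MB-231 vehicle, MCF10A with 2DG and MCF10A vehicle, with the mean and SD of 4 arrays as bars. The 4 groups separate on 224823_at and 202555_s_at, while on the other 3 probe sets the values with 2DG and on vehicle overlap.

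The genes whose log2 values ran most like MYLK over the 16 arrays were LINC00847 (Pearson r = 0.984), PNKD (0.978), STX2 (0.977), TIMP3 (0.975) and KRT10-AS1 (0.974). These coefficients describe arrays that fall into 4 groups, so they mostly reflect the 4 group means. After the group means were removed they were 0.483, −0.0834, 0.0968, 0.300 and 0.672 in the same order. TIMP3, an inhibitor of matrix metalloproteinases, averaged 11.67 in MDA-MB-231 with 2DG and 12.26 on vehicle, against 11.83 in MCF10A with 2DG and 10.93 on vehicle.

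The other 9 members were tested in a limma fit over all 19775 genes with Benjamini-Hochberg adjustment, and a gene is called at an adjusted p under 0.05. The members and gene lists were chosen with earlier results of these data known, so their calls and shares are not independent of that choice. With 2DG in MDA-MB-231, 4 of the 9 rose (MYL12A, MYL12B, ACTA2, TPM2) and 3 fell (MYL9, TPM1, CALD1), where 25.5% of all genes rose and 25.4% fell. In MCF10A, 2 of the 9 rose (ACTA2, CALD1) and 6 fell (MYL9, MYL12A, MYL12B, TAGLN, TPM1, TPM2), where 29.0% of all genes rose and 25.2% fell. Their median log2 change was 0.08 in MDA-MB-231 and −0.21 in MCF10A, beside 0.03 and 0.02 for all genes. The response differed between the lines for 5 of the 9: the change in MDA-MB-231 was higher for MYL12A, MYL12B, TAGLN and TPM2 and lower for CALD1. Over all genes 22.3% and 23.6% differed in those directions.

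**Figure D2:**
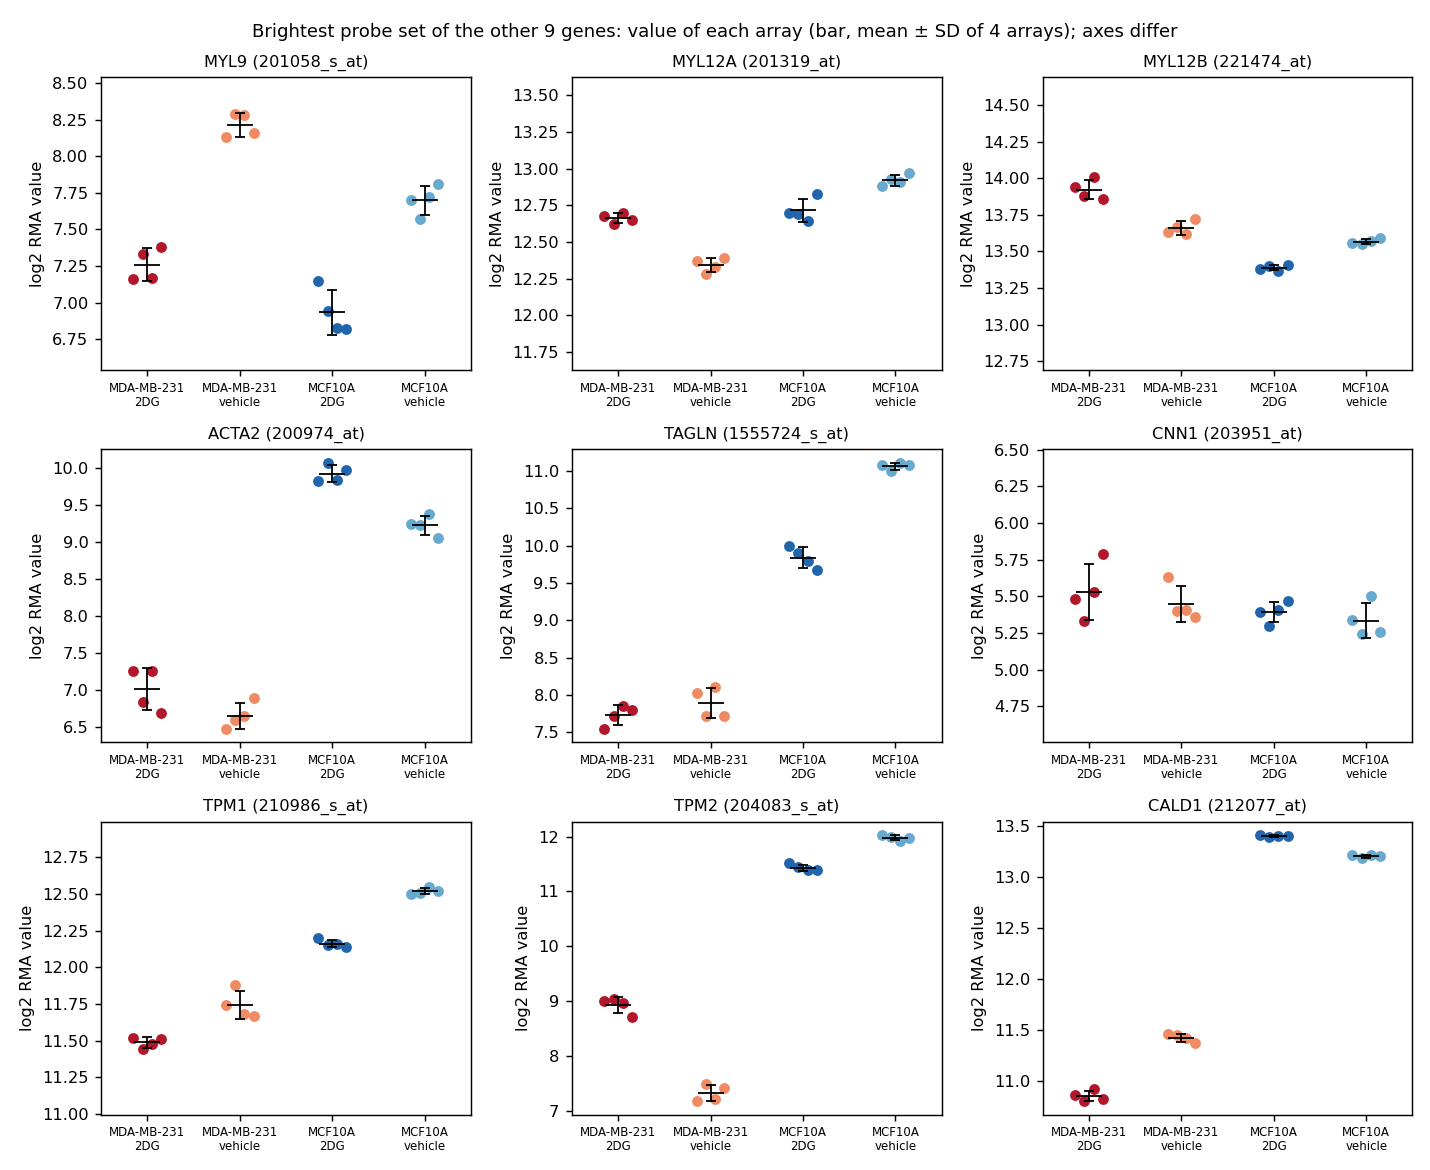
Log2 RMA value (y axis, a different range in each panel) of each array for the brightest probe set of the other 9 genes, by group, with the mean and SD of 4 arrays as bars. TPM2 is higher with 2DG in MDA-MB-231 and lower with 2DG in MCF10A, MYL9 is lower with 2DG in both lines, and the CNN1 groups overlap.

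Among the regulatory light chains, the substrate of the kinase, MYL9 fell in both lines. MYL9 encodes the light chain typical of smooth muscle and myoepithelium. It read 7.16, 7.33, 7.17 and 7.38 in MDA-MB-231 with 2DG and 8.13, 8.29, 8.28 and 8.16 on vehicle, a change of −0.955 (SE 0.0765, adjusted p = 1.37e-08 by limma). In MCF10A it read 7.15, 6.94, 6.83 and 6.82 with 2DG and 7.70, 7.57, 7.72 and 7.81 on vehicle, a change of −0.765 (SE 0.0765, adjusted p = 1.80e-07 by limma). The groups did not overlap in either line. The changes differed by −0.19 (95% interval −0.42 to 0.04, adjusted p = 0.179 by limma). The second MYL9 probe set, 244149_at, showed no call, with changes of −0.05 and −0.13.

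The light chains of non-muscle cells, MYL12A and MYL12B, moved less and in opposite directions in the lines. MYL12A averaged 12.66 ± 0.035 in MDA-MB-231 with 2DG and 12.34 ± 0.0486 on vehicle, a change of 0.32 (SE 0.0425). In MCF10A it averaged 12.715 ± 0.081 with 2DG and 12.92 ± 0.0377 on vehicle, a change of −0.21 (SE 0.0425). The difference of the changes was 0.53 (95% interval 0.40 to 0.66, adjusted p = 1.51e-06 by limma). MYL12B averaged 13.92 ± 0.0675 in MDA-MB-231 with 2DG and 13.66 ± 0.0455 on vehicle. In MCF10A it averaged 13.39 ± 0.0183 with 2DG and 13.57 ± 0.0171 on vehicle. Its changes were 0.26 in MDA-MB-231 and −0.18 in MCF10A (SE 0.0372 each), and they differed by 0.44 (adjusted p = 2.57e-06 by limma).

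MYL12A and MYL12B are close copies of each other on chromosome 18, and their probe sets may read both. A probe set that names them together was left out. On the MYL12A probe set 1555976_s_at the transcript fell in both lines, by 0.46 on the log2 scale in MDA-MB-231 and by 1.26 in MCF10A. On 1555978_s_at the changes were 0.61 in MDA-MB-231 and −0.785 in MCF10A, the same directions as on the brightest probe set. On 1555977_at the change was 0.39 in MDA-MB-231, and that of −0.12 in MCF10A was not called.

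Of the genes typical of smooth muscle, ACTA2 rose in MCF10A, reading 9.82, 10.07, 9.83 and 9.97 with 2DG and 9.24, 9.23, 9.37 and 9.05 on vehicle. The change was 0.70 (SE 0.122, adjusted p = 1.05e-04 by limma), and the groups did not overlap. In MDA-MB-231 the values with 2DG (7.25, 6.84, 7.25, 6.69) overlapped those on vehicle (6.47, 6.59, 6.65, 6.89). That change of 0.36 (SE 0.122) passed at an adjusted p of 0.0223 by limma, but not without vehicle replicate B (0.34, adjusted p = 0.0538 by limma), without vehicle replicate A or 2DG replicate A or C, with the mean of all probe sets (0.03, adjusted p = 0.721 by limma), or with the actin ratio as a covariate (0.34, adjusted p = 0.152 by limma). The 2 dim ACTA2 probe sets gave no call in either line. In MCF10A, where 29.0% of all genes rose and 25.2% fell, markers of other cell types were called as follows. Of 8 fibroblast markers 2 rose (25%), COL1A1 (2.11) and DCN (1.77), which is near the share of all genes, and the mean level of the list per array was 6.5025 to 6.6075 with 2DG and 6.0038 to 6.1388 on vehicle. PDGFRB and LUM, markers of the same list, were not called. Of 7 mesenchymal markers 4 rose (57.1%) and 2 fell (28.6%), with mean levels of 10.46 to 10.55 with 2DG and 9.81 to 9.98 on vehicle. Of 7 basal and myoepithelial markers 3 rose (42.9%) and 2 fell (28.6%). The part of these cell-type markers in the ACTA2 result was not tested.

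TAGLN, an actin cross-linking protein of smooth muscle, fell in MCF10A. It read 10.00, 9.90, 9.79 and 9.67 with 2DG and 11.08, 11, 11.11 and 11.08 on vehicle, a change of −1.23 (SE 0.0934) or 2.34-fold lower (adjusted p = 5.71e-09 by limma). In MDA-MB-231 it read 7.54, 7.71, 7.85 and 7.79 with 2DG and 8.02, 7.72, 8.11 and 7.72 on vehicle, and the groups overlapped (−0.17, adjusted p = 0.151 by limma). The changes differed between the lines by 1.06 (SE 0.132, adjusted p = 4.25e-06 by limma). On 205547_s_at the change was −1.29 in MCF10A and 0.02 in MDA-MB-231. The probe set 226523_at, taken as unshared from the suffix of its name alone, gave no call, with −0.085 in MCF10A and 0.08 in MDA-MB-231. It averaged 7.34 to 7.575 in the 4 groups, and what it reads was not analysed here. On it the difference of the changes was 0.16 and not called.

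CNN1 gave no call in any comparison over all arrays. Its single probe set ranged between 5.24 and 5.79 over all 16 arrays and was among the dim genes that a filter on mean level removes. Its changes were 0.08 in MDA-MB-231 (95% interval −0.10 to 0.27) and 0.06 in MCF10A (95% interval −0.13 to 0.24).

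The tropomyosin genes, whose coiled-coil products run along the actin filament, differed from each other. TPM2 rose 3.03-fold in MDA-MB-231, with values of 9.0, 9.04, 8.97 and 8.71 with 2DG and 7.18, 7.50, 7.23 and 7.42 on vehicle (log2 change 1.60, SE 0.0754, adjusted p = 1.85e-11 by limma). It fell in MCF10A, with 11.51, 11.44, 11.39 and 11.39 with 2DG and 12.03, 11.99, 11.92 and 11.98 on vehicle (−0.55, SE 0.0754, adjusted p = 8.06e-06 by limma). The groups were apart in both lines, and the changes differed by 2.145 (SE 0.107, adjusted p = 8.44e-11 by limma). With the mean of all probe sets the fall in MCF10A lost its call (−0.09, adjusted p = 0.122 by limma). The difference of TPM2 was the largest among the tested 9 on their brightest probe sets.

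TPM1 fell in both lines. It averaged 11.49 ± 0.0359 in MDA-MB-231 with 2DG and 11.74 ± 0.0967 on vehicle, a change of −0.255 (SE 0.0428). In MCF10A it averaged 12.16 ± 0.0263 with 2DG and 12.52 ± 0.0216 on vehicle, a change of −0.36 (SE 0.0428). The changes differed by 0.10 (95% interval −0.03 to 0.23, adjusted p = 0.197 by limma). Without vehicle replicate B of MDA-MB-231 that difference was called, at 0.15 (adjusted p = 0.0146 by limma).

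CALD1, which binds actin and myosin and inhibits the motor, moved in opposite directions on its brightest probe set. It read 10.86, 10.81, 10.92 and 10.82 in MDA-MB-231 with 2DG and 11.46, 11.45, 11.42 and 11.37 on vehicle, a change of −0.57 (SE 0.0332, adjusted p = 2.36e-10 by limma). In MCF10A it read 13.41, 13.39, 13.40 and 13.40 with 2DG and 13.21, 13.18, 13.21 and 13.20 on vehicle, a smaller change of 0.20 (SE 0.0332, adjusted p = 6.05e-05 by limma). Both lines had groups without overlap, and the changes differed by −0.77 (SE 0.0469). With the mean of all probe sets the fall in MDA-MB-231 lost its call (−0.03, adjusted p = 0.649 by limma).

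Probe sets of 1 gene did not all move alike. In a fit over all 54613 probe sets that are not controls, 7 of the 11 CALD1 probe sets rose and 1 fell in MCF10A, where 24.6% of all probe sets rose and 21.4% fell. In MDA-MB-231, 1 CALD1 probe set rose and 2 fell, where 22.8% of all rose and 20.9% fell. The 4 probe sets 235834_at, 243084_at, 205525_at and 231881_at rose in MCF10A by 1.20, 1.04, 1.38 and 1.715, more than the 0.20 of the brightest one, and changed by −0.02, 0.04, −0.215 and 0.105 in MDA-MB-231 without a call. The last of them read 4.88, 5.07, 4.95 and 5.32 in MDA-MB-231 with 2DG and 5.05, 5.00, 4.84 and 4.91 on vehicle. In MCF10A it read 7.81, 7.61, 7.87 and 7.47 with 2DG and 5.92, 6.10, 5.70 and 6.18 on vehicle. The bright probe set 201616_s_at went against 212077_at in MDA-MB-231, with a rise of 0.48 (SE 0.103). CALD1 is known to give a long form in smooth muscle and short forms in other cells, but the transcripts behind each probe set were not analysed here.

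TPM1 had 4 probe sets that fell in each line, and in MCF10A 238688_at and 1558532_at rose by 0.39 and 0.175. All 4 TPM2 probe sets rose in MDA-MB-231, by 0.15 to 1.60. In MCF10A 2 of them fell and the dim 227397_at and 229911_at rose, by 0.165 and 0.48.

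**Figure D3:**
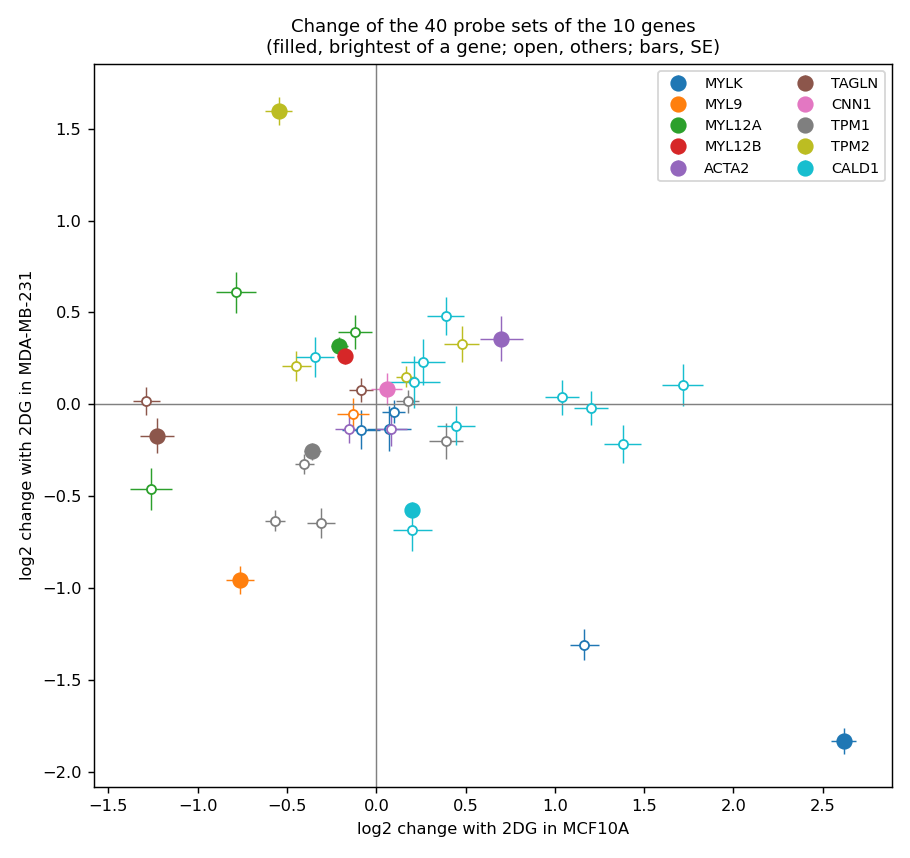
Log2 change with 2DG in MCF10A (x axis) against MDA-MB-231 (y axis) for the 40 probe sets of the 10 genes, with SE bars, filled for the brightest probe set of a gene and open for the others. The filled MYLK point stands at 2.62 and −1.83 and the filled TPM2 point at −0.55 and 1.60.

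**Figure D4:**
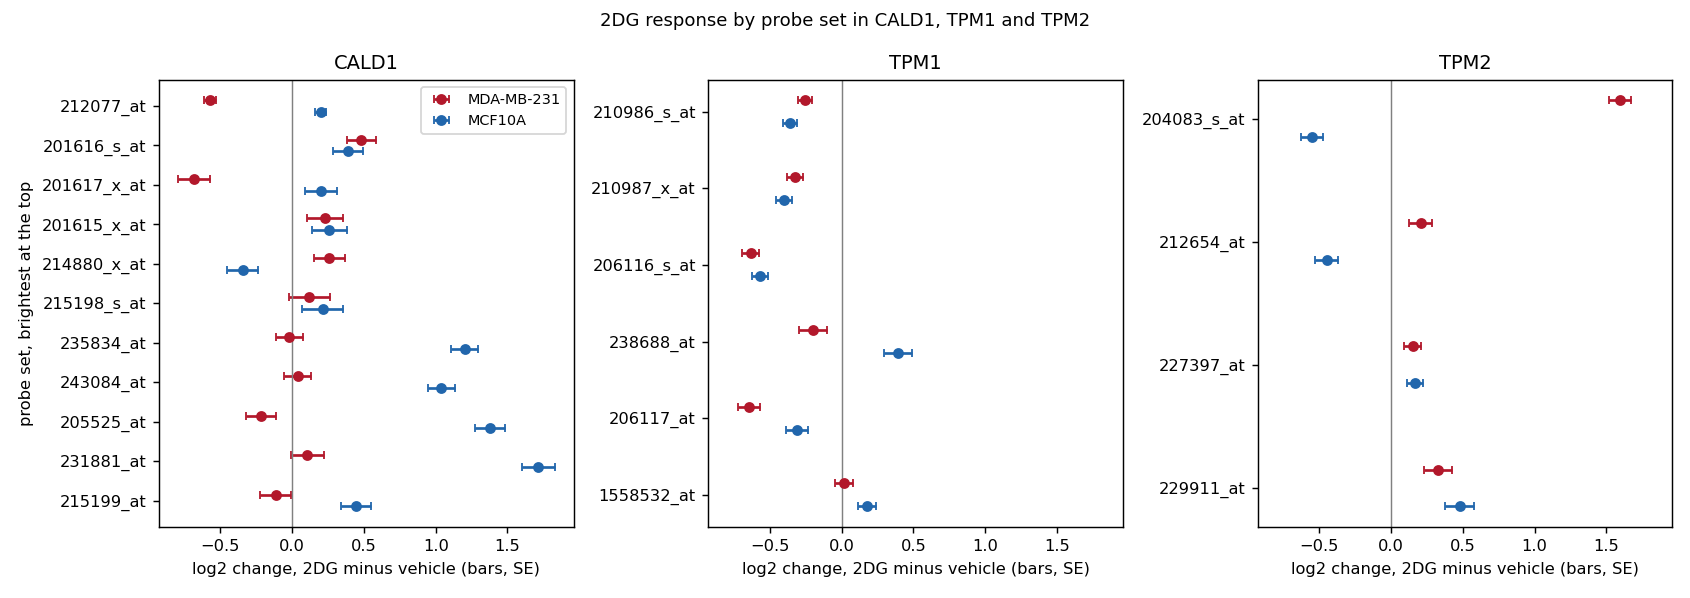
Log2 change, 2DG minus vehicle (x axis, bars SE), on each probe set of CALD1, TPM1 and TPM2, brightest at the top, in MDA-MB-231 and MCF10A. In CALD1, 4 probe sets rose by 1.04 to 1.715 in MCF10A and by no called amount in MDA-MB-231.

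Between the untreated lines, most of the thin filament genes were lower in MDA-MB-231. On vehicle, 6 of the other 9 members were lower in MDA-MB-231 than in MCF10A (MYL12A, ACTA2, TAGLN, TPM1, TPM2, CALD1) and 2 were higher (MYL9, MYL12B), where 26.8% of all genes were lower and 29.2% higher. Their median log2 difference was −0.78, beside 0 for all genes. TPM2 was 25.1-fold lower (−4.65, SE 0.0754), TAGLN 9.03-fold lower (−3.175, SE 0.0934), ACTA2 5.95-fold lower (−2.57, SE 0.122) and CALD1 3.42-fold lower (−1.775, SE 0.0332). For TPM1 the difference was −0.78 and for MYL12A −0.58. Adjusted p for these 6 genes lay between 1.85e-17 and 3.39e-09 by limma. These sizes hold for the brightest probe sets. TPM2 was 1.95-fold lower on 212654_at, −0.02 on 227397_at without a call and 0.25 higher on 229911_at. TAGLN was 12.7-fold lower on 205547_s_at and 1.17-fold lower on 226523_at, and the 2 dim ACTA2 probe sets gave 0.005 and 0 with no call. Of the other 10 CALD1 probe sets, 9 were lower in MDA-MB-231, by 0.315 to 2.155 on the log2 scale, and 215199_at was not called (0.01). MYL9 was 1.43-fold higher in MDA-MB-231 (0.515, adjusted p = 1.79e-05 by limma). The MYL12B difference of 0.09 (adjusted p = 0.0448 by limma) was lost when any 1 array of MCF10A, replicate B or D of MDA-MB-231 on vehicle or replicate A of MDA-MB-231 with 2DG was left out (adjusted p 0.0507 to 0.136 by limma), and with the actin ratio as a covariate.

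Under 2DG, 5 of the other 9 were lower in MDA-MB-231 than in MCF10A (ACTA2, TAGLN, TPM1, TPM2, CALD1) and 2 higher (MYL9, MYL12B), where 28.8% of all genes were lower and 30.7% higher. ACTA2 and CALD1 stood 7.54-fold and 5.85-fold lower in MDA-MB-231, and TPM2 and TAGLN 5.67-fold and 4.34-fold lower. Adjusted p for the 5 lower genes lay between 1.04e-18 and 3.84e-10 by limma. On the unshared TAGLN probe set 226523_at the difference under 2DG was −0.07 and not called, and on TPM2 212654_at it was 1.24-fold lower. MYL12A on its brightest probe set, lower in MDA-MB-231 on vehicle, was not called under 2DG (−0.05, adjusted p = 0.319 by limma). Its other 3 probe sets were all higher in MDA-MB-231 under 2DG, by 2.675, 0.695 and 1.52, and on vehicle 1555976_s_at was higher by 1.87. The comparisons under 2DG and on vehicle add no arrays to those of the treatment comparisons.

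Of 24 other measured genes that set light chain phosphorylation, 11 rose (45.8%) and 1 fell (4.17%) in MDA-MB-231, where 25.5% and 25.4% of all genes did. In MCF10A 13 rose (54.2%) and 6 fell (25%), beside 29.0% and 25.2% of all genes. Their median changes were 0.165 and 0.21, beside 0.03 and 0.02 for all genes. The list pools kinases with genes of the phosphatase that opposes them, so these counts give no direction for phosphorylation itself. In MDA-MB-231 the kinase ROCK1 rose (0.515), and so did the phosphatase subunit genes PPP1R12A (0.275), PPP1R12B (0.43) and PPP1R12C (0.60). RHOB, a small GTPase of the endosome that is a stress-responsive relative of RHOA, rose most in MDA-MB-231. It averaged 10.68 ± 0.215 with 2DG and 6.55 ± 0.219 on vehicle there (4.13, SE 0.115), and 7.735 ± 0.09 with 2DG and 6.355 ± 0.159 on vehicle in MCF10A (1.38, SE 0.115). The PP1 inhibitor gene PPP1R14B was the one that fell in MDA-MB-231, by 0.24 on the log2 scale.

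DAPK1, a calmodulin-regulated death-associated kinase, rose most in MCF10A. It averaged 10.025 ± 0.0785 with 2DG and 7.14 ± 0.0386 on vehicle (2.88, SE 0.0448). In MDA-MB-231 it was not called (0.05, SE 0.0448), at 8.94 ± 0.0356 with 2DG and 8.89 ± 0.068 on vehicle. The changes of DAPK1 differed by −2.835 (SE 0.0633, adjusted p = 1.74e-14 by limma). Like MYLK on its brightest probe set, DAPK1 was higher in MDA-MB-231 than in MCF10A on vehicle (1.75) and lower under 2DG (−1.085). PPP1R14A, the myosin phosphatase inhibitor CPI-17, fell most in MCF10A (−0.39).

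The named relatives of MYLK did not all follow it. MYLK4 rose in MCF10A by 1.44 (SE 0.118) and changed by 0.11 (SE 0.118) in MDA-MB-231 without a call. The difference of those changes was −1.335 (adjusted p = 4.37e-06 by limma). MYLK3, the cardiac kinase, rose in MCF10A (0.295, adjusted p = 0.0172 by limma) and was not called in MDA-MB-231 (0.19). It was dim in MCF10A, averaging 5.835 with 2DG and 5.54 on vehicle. MYLK2, the skeletal muscle kinase, was called in neither line (0.105 and −0.04). On vehicle, 11 genes of the list were higher (45.8%) and 7 lower (29.2%) in MDA-MB-231, where 29.2% and 26.8% of all genes were. DAPK1 stood most above MCF10A and the PP1 inhibitor gene PPP1R14C most below (−5.16).

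**Figure D5:**
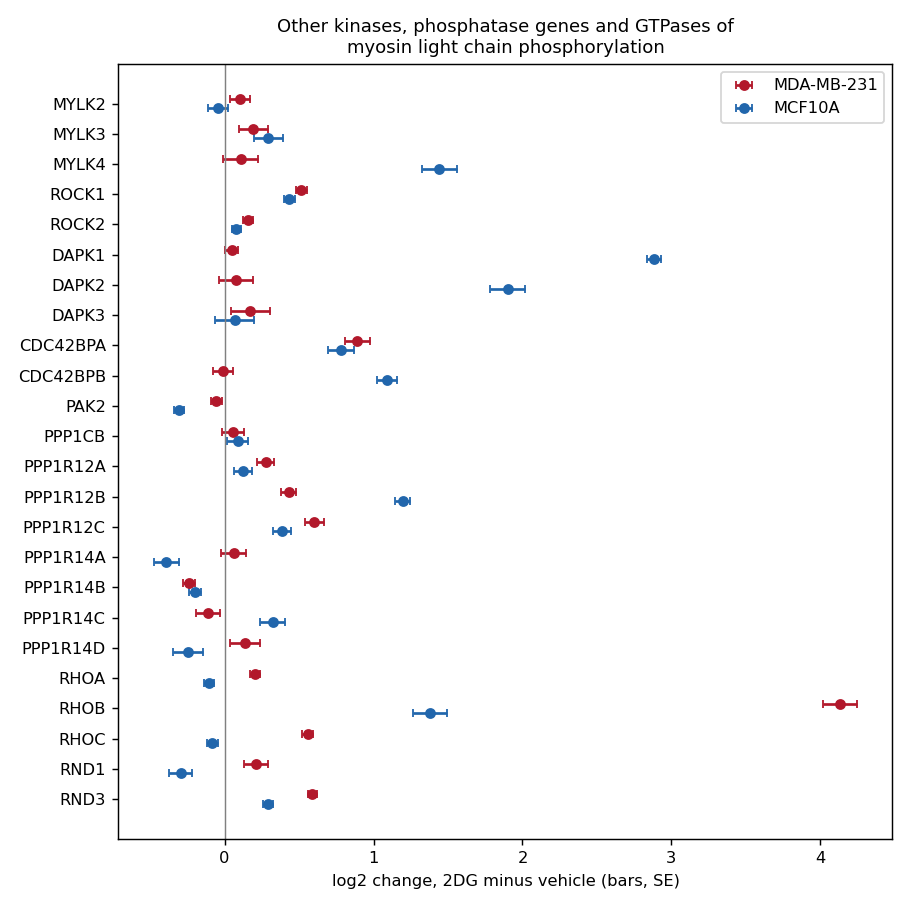
Log2 change, 2DG minus vehicle (x axis, bars SE), of the 24 measured list genes other than MYLK that set myosin light chain phosphorylation, in MDA-MB-231 and MCF10A. RHOB stands at 4.13 in MDA-MB-231 and 1.38 in MCF10A, and DAPK1 at 0.05 and 2.88.

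Of 23 other measured myosins, actins and filament proteins, 5 rose (21.7%) and 10 fell (43.5%) in MDA-MB-231, where 25.5% and 25.4% of all genes did. In MCF10A 5 rose (21.7%) and 12 fell (52.2%), beside 29.0% and 25.2% of all genes. The median changes were −0.11 in MDA-MB-231 and −0.185 in MCF10A. MYH10, a non-muscle myosin II heavy chain, fell most in MDA-MB-231 (−1.475, SE 0.0329) and LIMA1, which cross-links actin, rose most (0.79). In MCF10A the acidic calponin CNN3 fell most (−1.21, SE 0.0558) and zyxin (ZYX), a focal adhesion protein, rose most (0.54). On vehicle CNN3 was the gene of the list most above MCF10A in MDA-MB-231 (2.23) and CNN2 the one most below (−0.87).

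The list of SRF and MRTF factors and targets leaves out the members, and its genes ACTB and VCL also stand in the filament list above. Of its 20 measured genes, 5 rose (25%) and 9 fell (45%) in MDA-MB-231, where 25.5% and 25.4% of all genes did. In MCF10A 9 rose (45%) and 5 fell (25%), beside 29.0% and 25.2% of all genes. The median changes were −0.07 in MDA-MB-231 and 0.13 in MCF10A. The focal adhesion gene TES rose most in MDA-MB-231 (1.475, SE 0.0372) and SCAI, a suppressor of MRTF activity, fell most (−0.93). In MCF10A TGFB1I1, the adhesion protein Hic-5, rose most (1.86, SE 0.0545). SRF itself fell most there (−0.73, SE 0.0678) and also fell in MDA-MB-231 (−0.525, SE 0.0678). On vehicle MICAL2, an actin-oxidising enzyme, was most above MCF10A in MDA-MB-231 (1.715) and FBLIM1 most below (−2.92).

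Of 11 smooth muscle genes that are not members, 1 rose (SMTN, 0.31) and 1 fell (SYNM, −0.74) in MDA-MB-231, and 1 rose (CASQ2, 0.21) and 3 fell in MCF10A, led by the smoothelin gene SMTN (−1.025, SE 0.064). The shares of 9.09% rising and 9.09% falling in MDA-MB-231, and of 9.09% rising in MCF10A, were below those of all genes (25.5%, 25.4% and 29.0%), and the 27.3% falling in MCF10A stood near the 25.2% of all genes. CASQ2 was dim in MCF10A, averaging 5.15 with 2DG and 4.94 on vehicle. The changes of SMTN differed between the lines by 1.335 (adjusted p = 3.35e-09 by limma). On vehicle SYNM was most above MCF10A in MDA-MB-231 (3.14) and SYNPO2 most below (−0.25).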

How the data were processed

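Total RNA from 16 cultures was hybridised to Affymetrix U133 Plus 2.0 arrays after 3′-primed labelling, 4 arrays for each of 4 groups. The values deposited by the authors are log2 expression per probe set, made with RMA per the submitters' processing notes. Its version and the scanner settings are not given in the sources used here. Genes were named from GEO's platform annotation: 41091 probe sets carry 1 gene, of which 41037 were matched to the RefSeq table of GRCh38.p14, and 1801 probe sets with several genes were left out. Gene coordinates and promoter windows come from that table.

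The brightest probe set stood for a gene. A linear model of the 4 group means used all 16 arrays in limma 3.58.1 under R 4.3.3, with 12 residual degrees of freedom and Benjamini-Hochberg adjustment over 19775 genes or, for probe sets, over 54613. Standard errors and 95% intervals are from that fit. The fit was checked on simulated data. The number of arrays limits the precision. No 2 arrays of a group held identical values. Genes outside the 10 were named by rule: MYLK2 to MYLK4, the called gene with the largest rise and fall of each list in each line and between the lines on vehicle, and the 5 most correlated with MYLK. The members and lists were chosen with earlier results of these data known. Alternatives covered the probe set, dim genes, variance model, array scaling, groups fitted, replicate block, actin ratio and each array left out.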

Additional observations from a re-analysis of the deposited data

Results flagged for a closer look

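On single arrays, 10 of 160 groups of 4 values held 1 value far from the other 3, where chance gives about 1 in 20. None of them was on the brightest probe set of a gene. In MDA-MB-231, replicate B with 2DG gave 7.30 on TAGLN 226523_at, 6.31 on TPM2 212654_at and 5.75 on TPM2 227397_at, and replicate B on vehicle gave 5.87 on CALD1 243084_at. In MCF10A with 2DG, replicate D gave 5.26 on MYLK 1568770_at, 10.15 on TPM1 206116_s_at and 7.84 on CALD1 205525_at, and replicate A gave 4.42 on CALD1 215199_at. In MCF10A on vehicle, replicate D gave 11.34 on TAGLN 205547_s_at and replicate C gave 7.08 on TPM1 238688_at.

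The response to 2DG differed between the lines, MDA-MB-231 minus MCF10A, by 0.53 for MYL12A, 0.44 for MYL12B, 1.06 for TAGLN, 2.145 for TPM2 and −0.77 for CALD1. On the unshared TAGLN probe set 226523_at the difference was 0.16 and not called. For MYLK the difference of −4.45 was not tested, since MYLK was selected on these changes: all arrays with 2DG were below vehicle in MDA-MB-231 and above it in MCF10A.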

How the results depend on the processing

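The probe set was the choice that moved results most. Of 150 values from other probe sets, 74 stayed on their side of the threshold and 11 reversed. Reversed means the opposite direction, with both values called except for MYLK. Opposite directions where a call was missing were not counted as reversed. Among them were ACTA2 215787_at in MCF10A (−0.155), TPM1 238688_at in the difference of responses (−0.59) and MYL12A 1555976_s_at under 2DG (2.675). In MCF10A the reversed values were −0.0875 for MYLK on 1568770_at, 0.175 and 0.39 for TPM1, 0.165 and 0.48 for TPM2 and −0.34 for CALD1. In MDA-MB-231 they were −0.46 for MYL12A and 0.48 for CALD1. The difference of responses reversed for CALD1 on 214880_x_at (0.60), and the difference between lines on vehicle for MYL12A (1.87) and TPM2 (0.25). With the mean of all probe sets, the difference of responses for TPM1 was −0.16, and MYL12A was higher in MDA-MB-231 by 0.40 on vehicle and 1.21 under 2DG. That setting also ended the calls of ACTA2 (0.03) and CALD1 (−0.03) in MDA-MB-231 and of TPM2 (−0.09) in MCF10A. Another setting left out probe sets whose name suffix marks them as shared between transcripts or genes, with no probe sequence checked. There TPM1 rose by 0.39 in MCF10A, its difference of responses was −0.59 and its difference on vehicle was 0.06. In that setting TPM1 lost its call in MDA-MB-231 (−0.20, adjusted p = 0.108 by limma) and MYL9 lost its call in both lines. TAGLN lost its call in MCF10A (−0.085), between the lines under 2DG (−0.07, adjusted p = 0.394 by limma) and for the difference of responses (0.16, adjusted p = 0.181 by limma). Causes were not tested.

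Of the other 9 members, 3 fell in MCF10A and 1 in MDA-MB-231 without shared probe sets. The count with a lower response in MDA-MB-231 was 2 with the mean of all probe sets and without shared ones. The count higher in MDA-MB-231 on vehicle was 1 without shared probe sets, with arrays centred on their medians, with only the groups compared in the fit, with the actin ratio as a covariate and with the replicate block, and 1 to 2 when an array was left out. Under 2DG that count was 1 with the actin ratio, where MYL9 lost its call (0.28, adjusted p = 0.0582 by limma).

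Leaving out an array kept 783 of 800 values on their side of the threshold. For MYLK, which was not tested, values within its SD inside groups of the main value counted as kept. The exceptions were ACTA2 in MDA-MB-231 (adjusted p 0.0538 to 0.083 by limma in those fits), MYL12B between lines on vehicle, TPM1 without MDA-MB-231 vehicle replicate B, and CNN1 under 2DG without MDA-MB-231 2DG replicate B (0.21, adjusted p = 0.0496 by limma). Apart from the choice of probe set, the MYLK change ran from −1.875 to −1.77 in MDA-MB-231 and from 2.565 to 2.67 in MCF10A. Values without a call could change direction: CNN1 ran from −0.0033 to 0.15 in MDA-MB-231 and its difference of responses from −0.0608 to 0.0925. Leaving out dim genes dropped CNN1. Fitting only the groups compared was not run for the difference of responses, which needs all 4. The main fit did not pair arrays by replicate letter. Residuals of same-letter arrays correlated weakly in MCF10A, at 0.04 to 0.088, but there each of the 4 letters matched its own letter best. In MDA-MB-231 they correlated at −0.099 to 0.019, and only letter C matched its own best. With the replicate block, 5690 genes rose and 4963 fell with 2DG in MCF10A, against 5732 and 4989 without it, and MYL12B on vehicle was the 1 member value that lost its call.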
